A study of Mus musculus with 12 samples.

Results

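Transcripts of mature skeletal muscle fibres were followed in RNA sequencing of subcutaneous colorectal tumours from mice. The genes were 34 named contractile, calcium-handling and energy genes of fast and slow fibres, out of 17875 in the tables. Their rows were taken by gene symbol, but the set was chosen with earlier results of these data known. The 12 libraries fell into 4 groups of 3. All animals carried a subcutaneous tumour: the control group had the tumour alone, the stress group was also exposed to chronic stress, and the low-dose and high-dose groups had chronic stress plus a lower or higher dose of Xiao-chai-hu decoction, a herbal preparation of traditional Chinese medicine (XCHT-L and XCHT-H in the labels). The labels give no dose in numbers, no strain, age or sex, and no name of the tumour line. Whether the 3 libraries of a group are from different animals is not stated, and p-values therefore describe the spread among libraries, which may be technical.

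Libraries held 16734741 to 17950195 counts in total and detected 15476 to 15775 genes. Levels are given as CPM, counts scaled to the size of the library, and a floor of 3 counts corresponded to 0.167 to 0.179 CPM. Pairs of libraries within a group differed by a chi-square per gene of 6.34 to 77.1, so none agreed within counting noise. Markers of the labelled colorectal epithelium were low: Epcam reached at most 0.813 CPM, Krt8 0.115 CPM and Krt18 0.0586 CPM, while Lgals4 reached 19 CPM and Cdh1 16.9 CPM.

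A skeletal muscle fibre is packed with sarcomeres, in which thick filaments of myosin pull on thin filaments of actin. Calcium released from the sarcoplasmic reticulum binds troponin on the thin filament and permits the pull, and a calcium pump then ends it. Fast and slow fibres use different genes for many of the same parts, so myosin and troponin transcripts show which fibre class an RNA sample holds. Limb and trunk muscles lie beneath the skin, close to where a subcutaneous tumour grows.

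The muscle fibre genes differed widely between libraries of the same group, and 3 libraries from 3 different groups held most of their transcripts. Without Eno3, which behaved differently and is described apart, the other 33 genes took 0.071% of all counts in high-dose replicate 2 (95% Wilson interval 0.0698% to 0.0723%, counting error only, as for all intervals here). They took 0.0382% in control replicate 1 (0.0373% to 0.0391%) and 0.0276% in low-dose replicate 3 (0.0268% to 0.0284%). Stress replicate 1 came next, at 0.00762%, so that the step from low-dose replicate 3 down to it was 3.62-fold.

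Control replicate 3 held 0.00418% and high-dose replicate 3 held 0.00351%. The other 6 libraries lay between 0.000977% in stress replicate 2 and 0.00138% in the remaining low-dose libraries. In counts, the 33 genes summed to 12201 in high-dose replicate 2 and to 167 in stress replicate 2, and as percentages of all counts these libraries differed 72.7-fold. Every group therefore spanned a wide range, and all 4 groups overlapped. In bulk tissue, fewer muscle fibres and less RNA per fibre cannot be told apart.

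**Figure D1:**
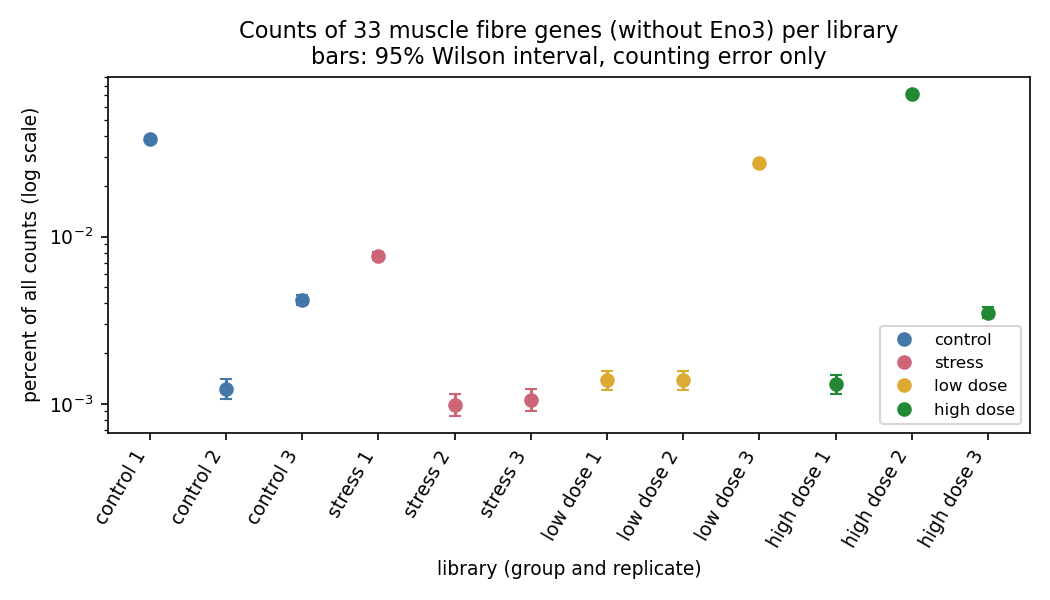
Percent of all counts (log scale) taken by 33 muscle fibre genes in each of the 12 libraries, coloured by group, with 95% Wilson intervals for counting error. High-dose replicate 2 (0.071%), control replicate 1 (0.0382%) and low-dose replicate 3 (0.0276%) stand above the other 9 libraries, and stress replicate 1 follows at 0.00762%.

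Most of the genes shared their 3 highest libraries, though not always in the same order. For 27 of the 34, the 3 highest libraries by CPM were control replicate 1, low-dose replicate 3 and high-dose replicate 2, and for 20 of these 27 stress replicate 1 was the fourth. Among all 13453 genes tested, 284 (2.11%) had those 3 libraries on top. The share of all genes highest in any single library was not computed. High-dose replicate 2 was the highest library for 28 of the 34, control replicate 1 for 5 (Tnnt1, Tnni1, Tnnc1, Myh7 and Myl2) and low-dose replicate 2 for Eno3. Those 5 encode the slow-fibre myosins and troponins of the set; Mybpc1, the slow-type myosin-binding protein C, was instead highest in high-dose replicate 2. Levels were low elsewhere: the median over the 12 libraries was under 1 CPM for 23 of the 34, 18 were at 0 in at least 1 library, and 16 had a count above 0 in all 12.

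**Figure D2:**
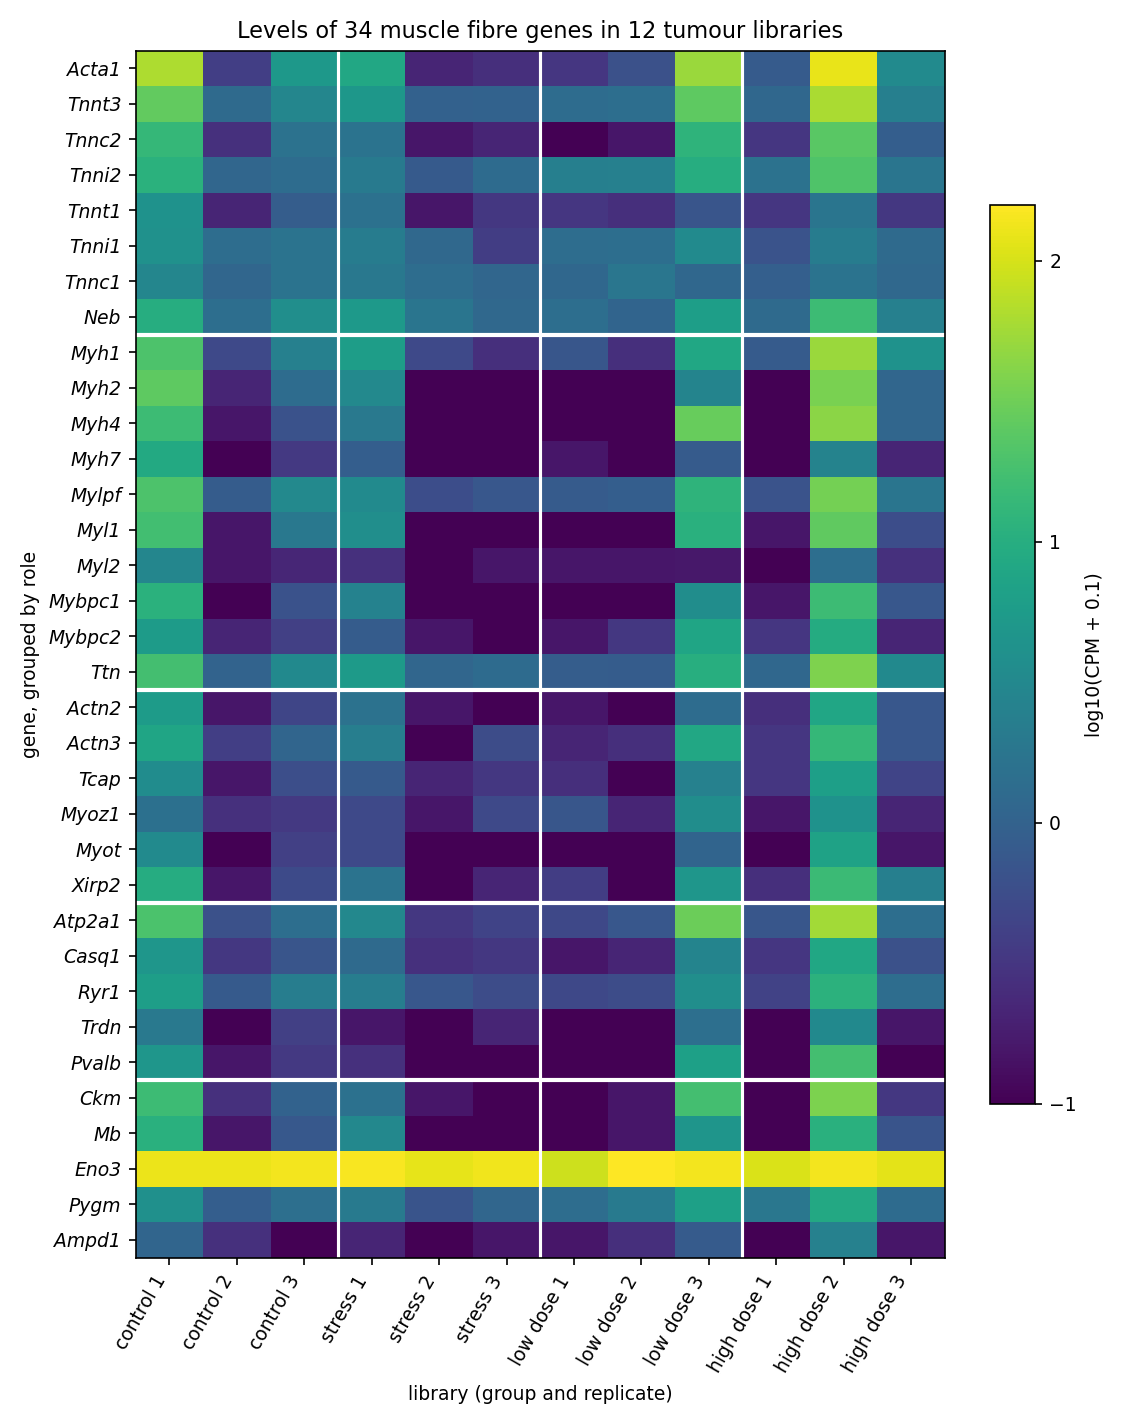
Heat map of the level of each of the 34 genes, as log10(CPM + 0.1), in 12 libraries, with horizontal lines between roles and vertical lines between groups. The columns of control replicate 1, low-dose replicate 3 and high-dose replicate 2 are bright for most genes, stress replicate 1 is intermediate, and the Eno3 row is bright throughout.

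The DNA just before the transcription start is shown for Acta1, Ckm and Myh4, which varied strongly, and for Eno3, which did not. Sequences are the 250 bases before the start in the RefSeq promoter table on GRCm38.p6, read 5′ to 3′ along the gene, and capitals mark matches to E-boxes (CANNTG, bound by MyoD-family factors), to the MEF2 box and to the CArG box of serum response factor.
Acta1 (chr8:123894776-123895025, minus strand): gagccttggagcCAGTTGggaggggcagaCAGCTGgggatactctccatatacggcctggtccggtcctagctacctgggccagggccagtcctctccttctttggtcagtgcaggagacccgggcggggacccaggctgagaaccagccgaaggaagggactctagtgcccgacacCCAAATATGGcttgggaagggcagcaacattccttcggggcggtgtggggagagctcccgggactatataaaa
Ckm (chr7:19410844-19411093, plus strand): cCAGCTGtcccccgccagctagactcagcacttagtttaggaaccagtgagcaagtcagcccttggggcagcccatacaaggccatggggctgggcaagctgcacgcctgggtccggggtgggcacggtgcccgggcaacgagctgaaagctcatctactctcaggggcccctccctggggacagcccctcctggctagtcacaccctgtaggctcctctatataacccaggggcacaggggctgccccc
Myh4 (chr11:67237562-67237811, plus strand): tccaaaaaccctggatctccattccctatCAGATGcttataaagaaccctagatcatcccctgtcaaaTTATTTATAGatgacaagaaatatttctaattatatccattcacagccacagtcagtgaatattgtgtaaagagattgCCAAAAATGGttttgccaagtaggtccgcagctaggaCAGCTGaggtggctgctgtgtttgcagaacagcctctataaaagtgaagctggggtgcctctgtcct
Eno3 (chr11:70656926-70657175, plus strand): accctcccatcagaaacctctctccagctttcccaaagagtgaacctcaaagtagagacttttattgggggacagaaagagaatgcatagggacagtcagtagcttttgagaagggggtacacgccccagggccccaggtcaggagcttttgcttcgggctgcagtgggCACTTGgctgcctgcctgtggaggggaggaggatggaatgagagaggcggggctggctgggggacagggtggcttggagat
RefSeq promoters were matched for 25 of the 34 genes, and 4 motifs were searched on both strands. CANNTG was present in 22 of 25 (88%) and in 69.3% of the 27025 promoters of all genes. Its form CAGCTG, which every CANNTG count includes, was present in 12 of 25 (48%) against 14.7% of all promoters. The MEF2 box was found in 5 of 25 (20%) against 3.42%, and the CArG box in 2 of 25 (8%), Acta1 and Myh4, against 1.62%. The windows of Acta1, Ckm and Myh4 hold CAGCTG and end where the annotated gene begins. That of Eno3 lacks CAGCTG but lies inside the annotated gene (chr11:70653125-70662513), before an internal start, so it is not the same kind of window. CAGCTG and the SD of log2 CPM within groups did not go together throughout the set. Pvalb, Tnnc2, Xirp2 and Myh1 lacked it at SDs of 2.99, 2.96, 2.68 and 2.63, while Tnni1 had it at 0.94. A link of motif and spread was not tested. These are matches of letters within a short window and were not tested for binding.

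Among thin-filament genes, Acta1, which encodes skeletal muscle actin (chr8:123891758-123894775 on GRCm38.p6), had the highest TPM (deposited level scaled for gene length) of the set, 178.86 in high-dose replicate 2. It stood at 64.2, 0.291 and 4.98 CPM in control replicates 1 to 3, at 8.22, 0.117 and 0.172 CPM under stress, at 0.225, 0.517 and 52 CPM at the low dose and at 0.722, 125 and 3.25 CPM at the high dose. Each group thus had 1 library well above its other two, and no group was separated from another.

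Tnnt3, the fast-fibre troponin T that ties the troponin complex to tropomyosin, stood at 26.8, 1.16 and 2.88 CPM in control libraries. Under stress it was at 4.78, 0.874 and 0.917 CPM, at the low dose at 1.24, 1.32 and 25 CPM, and at the high dose at 1.06, 61.1 and 2.32 CPM. The order of libraries was close to that of Acta1. Its slow-fibre counterpart Tnnt1 stood at 4.22, 0.116 and 0.781 CPM in controls, at 1.46, 0.0583 and 0.229 CPM under stress, at 0.225, 0.172 and 0.602 CPM at the low dose and at 0.222, 1.65 and 0.232 CPM at the high dose. For Tnnt1, control replicate 1 exceeded high-dose replicate 2, the reverse of Tnnt3.

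The calcium-binding troponin C gene of fast fibres, Tnnc2, had no count in low-dose replicate 1, a median of 0.518 CPM and a highest level of 23.8 CPM. Tnnc1, its slow and cardiac counterpart, ranged only from 0.833 through 1.19 to 2.81 CPM. Tnni2, the fast inhibitory troponin, ranged from 0.699 through 1.8 to 20.8 CPM, and Tnni1, the slow form, from 0.286 through 1.31 to 4.1 CPM. Tnnc2 thus spread most and Tnnc1 least of these 4. Within groups the SD of log2 CPM was 2.34 for Tnnt3, 2.96 for Tnnc2 and 1.54 for both Tnni2 and the slow Tnnt1, against 0.94 for Tnni1 and 0.47 for Tnnc1, so fast and slow troponins overlapped in spread. Neb, the giant protein that runs along the thin filament, stood at 9.66, 1.34 and 3.66 CPM in controls, 5.19, 1.63 and 1.09 under stress, 1.35, 0.977 and 6.14 at the low dose, and 1.17, 15.6 and 2.38 at the high dose.

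Thick-filament genes followed the same libraries, with differences among the myosin heavy chains, the motors that set the speed of a fibre. Myh4, the heavy chain of the fastest (type IIb) fibres, stood at 15.3, 0.0581 and 0.54 CPM in controls, at 1.87, 0 and 0 CPM under stress, at 0, 0 and 28.5 CPM at the low dose and at 0, 43.8 and 1.05 CPM at the high dose. Myh1, of type IIx fibres, stood at 20.1, 0.407 and 2.4 CPM in controls, 6.01, 0.408 and 0.172 under stress, 0.618, 0.172 and 8.01 at the low dose and 0.722, 51.6 and 4.12 at the high dose. Myh1 was the single adult heavy chain with a count above 0 in every library.

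Myh2, of the fast oxidative type IIa fibres, stood at 25.4, 0.116 and 1.26 CPM in controls, 3.09, 0 and 0 under stress, 0, 0 and 2.65 at the low dose and 0, 36 and 1.05 at the high dose. Myh7, the slow heavy chain shared with the heart, stood at 8.67, 0 and 0.24 CPM in controls, 0.816, 0 and 0 under stress, 0.0562, 0 and 0.722 at the low dose and 0, 2.59 and 0.116 at the high dose. Low-dose replicate 3, rich in Myh4, held Myh2 and Myh7 at levels near those of stress replicate 1. The counts of these 4 genes, and of Mylpf, Mybpc2 and Eno3, were not whole in some libraries, so reads may have been divided with near-identical genes and single values are uncertain.

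Mylpf, the fast regulatory light chain, stood at 20.1, 0.755 and 3.06 CPM in controls, 3.27, 0.466 and 0.63 under stress, 0.73, 0.805 and 11.9 at the low dose and 0.555, 33.9 and 1.63 at the high dose. Ttn, the giant spring of the sarcomere, stood at 17.6, 0.93 and 3.18 CPM in controls, 5.37, 1.05 and 1.2 under stress, 0.787, 0.747 and 10.1 at the low dose and 1.06, 37.6 and 3.2 at the high dose. Both ranked the 4 highest libraries as Acta1 did. Of the others, the essential light chain gene Myl1 ranged from 0 through a median of 0.261 to 26.3 CPM, the slow light chain gene Myl2 from 0 through 0.0592 to 2.87 CPM, and the slow and fast myosin-binding protein C genes, Mybpc1 and Mybpc2, reached 15.5 and 9.11 CPM.

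At the Z-disc, which anchors the thin filaments, Actn3 encodes the alpha-actinin of fast fibres. It stood at 7.55, 0.291 and 1.02 CPM in controls, 2.22, 0 and 0.458 under stress, 0.112, 0.172 and 8.19 at the low dose and 0.222, 13.4 and 0.639 at the high dose. Xirp2, an actin-binding repeat protein of the same region, stood at 9.54, 0.0581 and 0.42 CPM in controls, 1.57, 0 and 0.115 under stress, 0.281, 0 and 4.76 at the low dose and 0.167, 15.1 and 2.32 at the high dose. Low-dose replicate 3 exceeded control replicate 1 in Actn3 and lay below it in Xirp2. Actn2 reached 7.64 CPM, Tcap (the titin cap) 6.23 CPM, Myoz1 4.17 CPM and Myot 6.82 CPM, each highest in high-dose replicate 2, and their medians lay between 0.029 CPM for Myot and 0.321 CPM for Myoz1.

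Among calcium-handling genes, Atp2a1 encodes the fast-fibre calcium pump SERCA1. It stood at 19.7, 0.523 and 1.32 CPM in controls, 3.03, 0.233 and 0.344 under stress, 0.393, 0.632 and 30.2 at the low dose and 0.611, 56.3 and 1.34 at the high dose. Pvalb, the calcium buffer parvalbumin of the fastest fibres, stood at 4.68, 0.0581 and 0.24 CPM in controls, 0.175, 0 and 0 under stress, 0, 0 and 6.44 at the low dose and 0, 17.6 and 0 at the high dose. In high-dose replicate 3, where Ttn and Myh1 were detected, Pvalb had no count, which allows up to 3 counts. Casq1, the calcium store protein, reached 7.88 CPM, the release channel gene Ryr1 11.3 CPM and its partner Trdn 3.17 CPM, all in high-dose replicate 2.

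Of the energy genes, Ckm, the muscle creatine kinase, stood at 15.5, 0.174 and 0.901 CPM in controls, 1.46, 0.0583 and 0 under stress, 0, 0.0575 and 17.3 at the low dose and 0, 36.9 and 0.232 at the high dose. Mb, which encodes the oxygen store myoglobin, stood at 10.6, 0.0581 and 0.661 CPM in controls, 3.03, 0 and 0 under stress, 0, 0.0575 and 4.52 at the low dose and 0, 10.7 and 0.581 at the high dose. Control replicate 1 and high-dose replicate 2 were alike in Mb, although the latter was higher in 28 genes of the set. Pygm, the muscle glycogen phosphorylase, ranged from 0.583 through 1.58 to 8.52 CPM, and Ampd1, the muscle AMP deaminase, from 0 through 0.0874 to 2.47 CPM.

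Eno3, the muscle enolase of glycolysis, was the exception. It stood at 128, 127 and 140 CPM in controls, 145, 119 and 133 under stress, 90.3, 158 and 137 at the low dose and 105, 139 and 118 at the high dose. It was therefore abundant in every library, including those in which Ckm and Myh4 were at 0, and the libraries rich in the other genes did not stand apart. Its SD within groups, 0.25 on the log2 CPM scale, was near the median of 0.21 over all genes tested, whereas the 33 members tested had a median of 2.32.

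That spread was seen in each group: the median SD of log2 CPM over the members was 2.28 in the control group, 1.37 in the stress group, 2.2 at the low dose and 2.8 at the high dose, beside 0.1, 0.16, 0.27 and 0.17 over all genes. Of the 13453 genes tested, the 100 with the largest SD within groups held 28 of the 33 members tested. They also held 14 of the 43 other muscle fibre genes tested, from a separate list. Both lists were chosen with earlier results of these data known, so these counts are description only. Myh4 ranked 2, Acta1 3 and Ckm 4 of all genes tested, while Tnnc1 ranked 1945 and Eno3 5292. Tnnc1 and Eno3 thus varied within groups less than the rest of the set.

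The 3 libraries rich in these transcripts did not hold the same mixture of fibre genes. In each library the share of an adult myosin heavy chain was taken from the TPM of Myh1, Myh2, Myh4 and Myh7, a unit scaled for gene length, with intervals from the counts. In control replicate 1, on 1187 counts, Myh2 made up 36.4%, Myh1 29.1%, Myh4 22.1% (19.7% to 24.4%) and the slow Myh7 12.5% (10.7% to 14.5%). In low-dose replicate 3, on 662 counts, Myh4 made up 71.5% (68.0% to 74.9%), Myh1 20.1%, Myh2 6.55% (4.99% to 8.81%) and Myh7 1.82% (1.04% to 3.14%). In high-dose replicate 2, on 2279 counts, Myh1 made up 38.6%, Myh4 32.8% (30.8% to 34.6%), Myh2 26.7% and Myh7 1.93% (1.44% to 2.58%).

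The Myh4 shares of these 3 libraries had intervals that did not overlap, and neither did the Myh7 share of control replicate 1 with either of the other two. Stress replicate 1, on 202 counts, held 51.2% Myh1, 26.2% Myh2, 15.8% Myh4 and 6.81% Myh7. Control replicate 3 (54.1%, 74 counts) and high-dose replicate 3 (65.0%, 109 counts) were also mostly Myh1. The other 6 libraries rested on 3 to 13 counts each, mostly of Myh1 (66.7% in control replicate 2), and their shares carry little information.

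**Figure D3:**
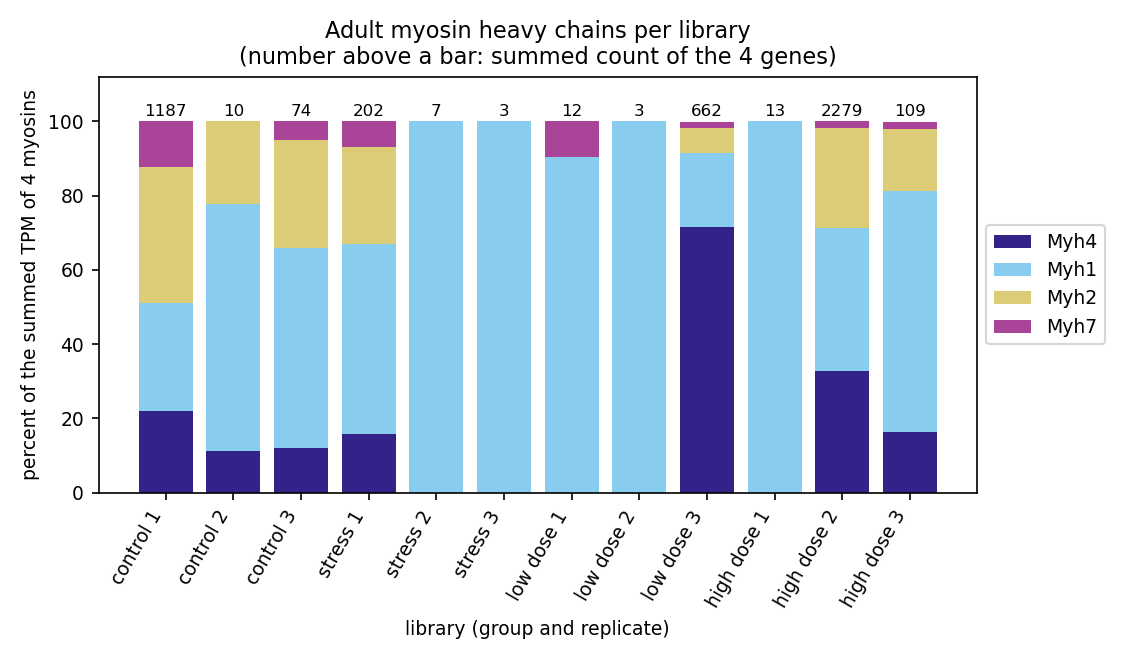
Share of each adult myosin heavy chain in the summed TPM of the 4 (percent, stacked bars) for the 12 libraries, with the summed count above each bar. Low-dose replicate 3 is mostly Myh4 (71.5%), control replicate 1 has the largest Myh7 share among libraries with over 100 counts (12.5%), and bars on 13 counts or fewer are imprecise.

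Of the other fast and slow partners, the troponin T and C pairs also had a larger slow share in control replicate 1 than in low-dose replicate 3 or high-dose replicate 2, and the troponin I pair only partly. Tnnt1 made up 13.8% of the summed TPM of Tnnt1 and Tnnt3 in control replicate 1, 24.2% in stress replicate 1, 2.41% in low-dose replicate 3 and 2.65% in high-dose replicate 2. Tnnc1 made up 16.2% of the troponin C pair in control replicate 1, 7.92% in low-dose replicate 3 and 5.68% in high-dose replicate 2, but 77.8% or more in the 6 libraries with the fewest transcripts of the set. In those libraries the slow and cardiac form was thus present at a level near 1 CPM with little of its fast partner. By counts, Tnni1 made up 27% of the troponin I pair in control replicate 1 (22% to 32.7%) and 25.2% in low-dose replicate 3 (19.9% to 31.5%), which overlap, and 9.25% in high-dose replicate 2 (6.76% to 12.5%).

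Over 12 fast-fibre genes and the 5 slow myosin and troponin genes, Mybpc1 not among them, the ratio of summed TPM was 31.1 in high-dose replicate 2 and 23.6 in low-dose replicate 3. It was 7.4 in control replicate 1 and between 0.891 and 3.49 in the other 9 libraries. In stress replicate 2, with the ratio of 0.891, the slow sum was 7.49 TPM. Tnnc1 gave 5.2 and Tnni1 2.14 TPM of it, and Myh7 and Myl2 were at 0. A low ratio in such a library thus rests on Tnnc1 and Tnni1 and does not show a slower mixture of fibres. These genes also weighed in the richer libraries. Tnnc1 and Tnni1 gave 3.82 and 4.88 of the 10.4 TPM slow sum in low-dose replicate 3. In high-dose replicate 2 they gave 5.94 and 4.0 of 20.5 TPM. The order of the ratios of these libraries therefore depends on Tnnc1 and Tnni1 as well.

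Counting error alone was small enough to compare these libraries gene by gene, as libraries and not as conditions. The intervals were computed for the 34 genes only, and these libraries were picked for high levels of them. Libraries of the same group also differed beyond counting noise, so the numbers of genes given next cannot be read as particular to the set. Between high-dose replicate 2 and control replicate 1, 28 of the 34 genes had a CPM ratio whose 95% exact interval lay above 1, and 5 had one below 1. The 5 were the slow myosin and troponin genes: Myh7 at 0.298 (0.208 to 0.42), Tnnt1 at 0.39, Myl2 at 0.471, Tnni1 at 0.516 and Tnnc1 at 0.544. Mybpc1, the slow-type myosin-binding protein C, was on the other side, at 1.4 (1.16 to 1.7). Pvalb differed the most in that direction, at 3.75 (2.92 to 4.86), and the median of the 34 ratios was 1.72.

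Low-dose replicate 3 against control replicate 1 gave 7 genes above, 18 below and 9 whose interval included 1, with a median of 0.66. Above were Myoz1 at 2.53 (1.55 to 4.25), Myh4 at 1.87 (1.6 to 2.18), Pygm at 1.66, Atp2a1 at 1.54, Pvalb at 1.37, Mybpc2 at 1.32 and Eno3 at 1.07, the last 3 with lower bounds of 1.02, 1.0 and 1.0. Below were, among others, Myl2 at 0.021, a ratio resting on 1 count against 49, Myh7 at 0.0833 (0.0421 to 0.15), Myh2 at 0.104 (0.0746 to 0.142), Tnnt1 at 0.143, Actn2 at 0.227 and Mb at 0.426. Fast and slow genes did not divide cleanly here. Of the fast genes, Myh4, Atp2a1, Pvalb and Mybpc2 lay above, Myh1, Myh2, Mylpf (0.589) and Myl1 (0.625) below, and the intervals of Actn3, Tnnt3, Tnnc2 and Tnni2 included 1. Of the slow myosin and troponin genes, Myl2, Myh7, Tnnt1 and Tnnc1 lay below and the interval of Tnni1 (0.793) included 1, while Acta1 was at 0.809 (0.739 to 0.886). High-dose replicate 2 exceeded low-dose replicate 3 in 29 genes and lay below it in 0, with a median ratio of 2.5 over the 34 and Myh2 at 13.6 (9.99 to 18.9).

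Developmental fibre genes did not follow the same order. Myh3 and Myh8 encode the embryonic and perinatal myosin heavy chains, used in growing and regenerating fibres. Together they made up 6.49% of the TPM of 6 heavy chains in control replicate 1, 2.3% in high-dose replicate 2 and 0.453% in low-dose replicate 3, where they had 3 counts. In stress replicate 1 they made up 32% (65 counts of Myh3 and 30 of Myh8), in control replicate 3 25% and in high-dose replicate 3 18.1%. The libraries with intermediate levels of the adult genes therefore had larger developmental shares than the 3 richest.

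Myog, the differentiation factor of muscle precursors, stood at 0.995 CPM in control replicate 1, 1.06 in high-dose replicate 2, 0.661 in control replicate 3, 0.408 in stress replicate 1, 0.301 in low-dose replicate 3 and 0.174 in high-dose replicate 3, and at 0 in the other 6. Pax7, the marker of muscle stem cells, reached at most 0.118 CPM.

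Other genes of muscle fibres gave the same picture less evenly. Of 70 such genes, 53 were highest in high-dose replicate 2, and the share of all genes highest there was not computed. Control replicate 1, low-dose replicate 3 and high-dose replicate 2 were the 3 highest libraries for 41 of the 70, beside 2.11% of all genes tested. Only 43 of the 70 were tested, so these shares rest on unlike sets of genes. Myom2, of the sarcomere's M-band, stood at 2.23, 0.963 and 5 CPM in those libraries, at 0.933 in stress replicate 1 and at 0 in 6 libraries. The most abundant of the 70, Atp2a2, Tpm2, Pfkm and Phka1, are also used outside skeletal muscle and varied little: Atp2a2 ranged from 231 to 387 CPM and Phka1 from 35.2 to 48.8 CPM.

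By likeness to the members' mean profile over the 12 libraries, genes outside every list that lay near it were Xirp1, Eef1a2, Pdk4 and Hjv. Their root mean square differences in centred log2 CPM were 0.29, 0.35, 0.49 and 0.63, and they reached 6, 4.94, 4.76 and 1.76 CPM, each in high-dose replicate 2. The next 10 were Angptl1, Cap2, Cmya5, Synpo2l, Ppp1r3c, Ankrd2, Sypl2, Smyd1, Fhl1 and Sh3bgr, at 0.8 to 1.05. The members themselves lay between 0.21 (Mylpf) and 1.83 (Eno3) with a median of 0.81, and the median of all genes was 1.9. Since the profile is the mean of these same members, their smaller differences are partly built in.

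Markers of other tissues were read in the same libraries. Desmin (Des), shared by skeletal and smooth muscle, stood at 21.8 CPM in control replicate 1, 15.5 in low-dose replicate 3, 30 in high-dose replicate 2, 8.57 in stress replicate 1 and 1.4 to 4.47 in the other 8. The summed level of 8 smooth muscle genes, Des included, was 162 CPM in control replicate 1 and 254 in low-dose replicate 3. It was 217 CPM in high-dose replicate 2, of which Des gave 30, and 125 to 173 CPM in the other 9. Acta2 was at 39.5 and 39.9 CPM in low-dose replicate 3 and high-dose replicate 2 and at 12 to 19.7 in the other 10, control replicate 1 included. By Acta2 and by this sum, which Des raised in part, smooth muscle transcripts were thus higher in 2 of the 3 libraries. Their part in the values was not tested.

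Nerve and skin markers were read likewise. The sum of 8 nerve and Schwann cell genes was lowest in low-dose replicate 3, at 193 CPM, was 205 CPM in both control replicate 1 and high-dose replicate 2, and reached 272 CPM in low-dose replicate 2. Of the skin genes, which summed to 178 to 389 CPM, Krt14 was detected in every library at 165 to 381 CPM, while its partner Krt5 was at 0 in all libraries but stress replicate 3 (5.61 CPM). The parts of nerve and skin were not tested.

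Fat and tendon genes completed the check. The 8 adipocyte genes summed to 40.8 CPM in control replicate 1, 35.2 in high-dose replicate 2 and 25.2 in low-dose replicate 3, within or above the 12 to 27.2 CPM of the other 9. Car3, used by fat and by slow muscle, made up part of this, at 15.3, 16.5 and 7.35 CPM. Fabp4, the most abundant of the 8, ranged from 12 CPM to 25.4 CPM and was highest in control replicate 1. Cfd was highest in low-dose replicate 3, at 1.63 CPM. The defining fat genes Adipoq and Plin1 were at most 0.118 and 0 CPM in these libraries. The part of fat was not tested. The 6 tendon genes summed to 63 CPM in high-dose replicate 2, 43.1 in control replicate 1, 47.9 in low-dose replicate 3 and 21.6 to 63.1 CPM elsewhere, with Tnmd reaching 2.82 CPM in high-dose replicate 2 and no more than 0.618 elsewhere; the part of tendon was not tested. The endothelial sum, 46.3 to 113 CPM, was highest in stress replicate 3 and lowest in low-dose replicate 2.

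The first comparison between groups asks what chronic stress changed. No member passed edgeR's quasi-likelihood test with Benjamini-Hochberg adjustment, whose background was also 0.0% of 13453 genes, and none had an unadjusted p under 0.05, against 2.85% of all genes. Of the 33 members tested, 32 were lower and 1 higher under stress, with a median log2 fold change of -2.20 beside 0.0059 over all genes. Acta1 was at -3.03 (SE 2.41, 3 libraries per group), Myh4 at -3.08 (SE 2.75), Actn3 at -1.72 (SE 1.94), Atp2a1 at -2.57 (SE 2.18) and Ckm at -3.43 (SE 2.69). The 1 gene that was not lower was Eno3. The SE of each named gene was close to the size of its difference, and 0 members had groups that did not overlap, beside 14.1% of all genes.

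The smallest p belonged to Myh7, at 0.125 (adjusted p = 0.9999 by edgeR). Control replicate 1 decided the direction: without it the median was 0.31, with 23 members higher and 10 lower. Leaving out stress replicate 1 gave -4.22. DESeq2 also called 0 members (background 0.00745%), with 11 left without an adjusted p.

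Low dose against stress asks what the decoction changed in stressed animals. Again 0 members passed edgeR's test (background 0.0%) and 0 had an unadjusted p under 0.05, against 13.4% of all genes. The median was 1.43 beside -0.00042 over all genes, with 27 members higher and 6 lower. Acta1 was at 2.63 (SE 2.40), Myh4 at 3.92 (SE 2.75), Actn3 at 1.65 (SE 1.94), Atp2a1 at 3.1 (SE 2.19) and Ckm at 3.50 (SE 2.69), while of the slow myosin and troponin genes tested Tnni1 was higher and Tnnc1, Myh7 and Tnnt1 were lower. DESeq2 called 0 members (background 0.707%). The smallest p was that of Pygm, 0.138 (adjusted p = 0.4884 by edgeR).

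Tnni2, named because its groups did not overlap, was the single such member here, beside 11.9% of all genes: it stood at 2.3, 2.36 and 9.63 CPM at the low dose and at 1.98, 0.699 and 1.2 CPM under stress. Without low-dose replicate 3 the median of the members was -1.94, with 6 higher and 28 lower, and without stress replicate 1 it was 3.32. Without stress replicate 2 the median was 0.89.

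High dose against stress likewise gave 0 members past edgeR's test (background 0.0%) and 0 with an unadjusted p under 0.05, against 1.42% of all genes. DESeq2 gave 0 past its adjusted threshold (background 0.0%), with 11 members left without an adjusted p, and 2 with an unadjusted p under 0.05, Pygm and Ampd1, beside 217 of 13453 genes. The median was 2.68 beside -0.0038 over all genes, with 31 members higher and 2, Tnnc1 and Eno3, lower. In 0 members the groups did not overlap, beside 5.75% of all genes. Acta1 was at 3.92 (SE 2.46), Myh4 at 4.57 (SE 2.78), Actn3 at 2.40 (SE 1.94), Atp2a1 at 4.0 (SE 2.22) and Ckm at 4.60 (SE 2.71). The smallest edgeR p was that of Tnni2, 0.0625 (adjusted p = 0.9998).

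The 12 fast genes had a median of 3.39 and the 4 slow myosin and troponin genes tested a median of 0.2 in this comparison. Without high-dose replicate 2, 4 members were higher and 29 lower, with a median of -0.50. Leaving out stress replicate 1 gave 4.56. Both dose comparisons and the first share the stress libraries, so their values are not independent.

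High dose against low dose gave 0 members past edgeR's test (background 0.0%) and 0 with an unadjusted p under 0.05, against 6.39% of all genes. The median was 1.29 beside 0.0042, with 30 higher and 3, Tnnc1, Eno3 and Tnni1, lower. DESeq2 called 0 members (background 0.0372%), and in 0 the groups did not overlap, beside 7.34% of all genes. The smallest p was that of Myh2, 0.141 (adjusted p = 0.7643 by edgeR). Leaving out low-dose replicates 1, 2 or 3 gave a median of 0.8, 0.74 or 4.81, and without high-dose replicate 2 it was -2.03, with all 33 members tested lower.

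**Figure D4:**
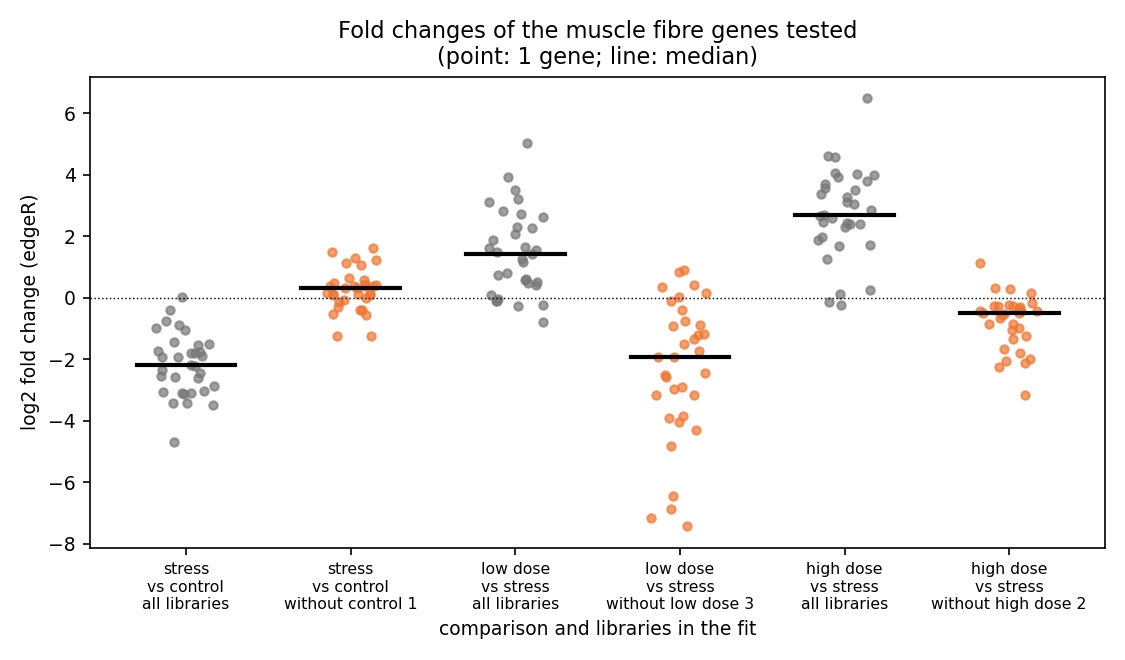
Log2 fold changes (edgeR) of the muscle fibre genes tested, 1 point per gene with the median as a line, in 3 comparisons with all libraries (grey) and without 1 library (orange). The medians move from -2.20 to 0.31, from 1.43 to -1.94 and from 2.68 to -0.50 when control replicate 1, low-dose replicate 3 or high-dose replicate 2 is left out.

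Eno3, the 1 energy gene with high counts in every library, differed little between groups: 0.01 (SE 0.17) under stress against control, -0.05 (SE 0.17) at the low dose and -0.14 (SE 0.17) at the high dose against stress. With control replicate 1, low-dose replicate 3 and high-dose replicate 2 left out together, 25 members were tested and 0 passed; the medians were 0.31 for stress, -1.93 for the low dose and -0.43 for the high dose against their references, and 1.54 between doses. In each of the 4 comparisons, leaving out 1 library turned the sign of the members' median.

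Of the other fibre genes, 43 were tested and 0 passed by edgeR in any of the 4 comparisons. Their median log2 fold changes were -0.52 under stress, 0.36 at the low dose, 1.04 at the high dose and 0.68 between doses. An unadjusted p under 0.05 was reached by 2 genes under stress (Myh13 and Phka1, beside 2.85% of all genes), 3 at the low dose (Myh13, Cox7a1 and Adssl1, beside 13.4%), 2 at the high dose (Myh13 and Mylk2, beside 1.42%) and 0 between doses (beside 6.39%). Myh13, the heavy chain of eye and throat muscles, was at 1.99 under stress, -1.65 at the low dose and -1.62 at the high dose, opposite to the members' medians, with edgeR adjusted p of 0.361 or more; these genes are named for their p.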

How the data were processed

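Messenger RNA of 12 tumour libraries was measured. Per the submitters' processing notes, reads were handled with cutadapt 1.9, HISAT2 2.0.4, StringTie 1.3.4d, DESeq2 and edgeR on GRCm38.p6; the annotation and counting options are not given in the sources used here. The deposited estimated counts (11.74% to 12.49% not whole per library) were rounded for fitting, since whole counts had been assumed. TPM was deposited by the authors and used for comparing genes; FPKM values were deposited by the authors and not used for results. Date-like symbols were restored for 26 genes. Of 145 other list entries, 143 were found; Myl7 and Cdx2 were not analysed here.

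Genes were kept by filterByExpr (minimum count 10), which left 13453 and 33 of the 34 members (not Myl2). One edgeR 4.0.16 quasi-likelihood model (R 4.3.3, TMM, robust, 4 groups, 8 residual degrees of freedom) gave 2-sided tests with Benjamini-Hochberg adjustment over all genes at 0.05. CPM used TMM library sizes, and log2 CPM a prior count of 2. The pipeline was tested on simulated data. Alternatives were DESeq2 1.42.0, RLE factors, limma 3.58.1 voom with quality weights, minimum counts of 50 or no filter, fits of only 6 libraries, the replicate number as a block and each library left out; omission of 3 libraries was added after the data were seen. Members named with all 12 values had at least 2 per role and both fibre classes; the others are given by range, or by their highest level. Of each other list up to 4 abundant genes, and of unlisted genes the 15 most alike, were taken (1 of these is not reported here); others, such as Des, Acta2, Car3, Tnmd, Pax7 and Myom2, were named after their values were seen. The members and lists were chosen with earlier results of these data known.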

Additional observations from a re-analysis of the deposited data

How the results depend on the processing

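No alternative called a member: 0 passed in every comparison under every setting, and from 0 to 0 with each library left out (DESeq2 left 11 members without an adjusted p). The medians of the members with 1 library left out ranged from -4.22 to 0.31 for stress against control, -1.94 to 3.32 for low dose against stress, -0.50 to 4.56 for high dose against stress and -2.03 to 4.81 between doses. Single genes ranged, in the order stress against control, low dose and high dose against stress, for Acta1 from -7.25 to 0.11, -2.91 to 6.85 and -0.52 to 8.14; for Myh4 from -9.51 to 1.05, -6.44 to 10.35 and -0.26 to 11.01. Actn3 ranged from -3.64 to 0.44, -2.59 to 3.57 and -1.04 to 4.32; Atp2a1 from -4.60 to 0.38, -1.22 to 5.13 and -0.31 to 6.03; Ckm from -7.25 to -0.08, -3.84 to 7.32 and -2.07 to 8.42. Where an omission left a group with Myh4 at 0 in both libraries, the fitted value depends on the prior count and is no bound. Without the 3 richest libraries the medians were 0.31, -1.93 and -0.43; in the first comparison Acta1 was at 0.11, Myh4 at 1.05, Actn3 at 0.44 and Atp2a1 at 0.38. In the second Acta1 was at -2.91, Myh4 at -6.44, Actn3 at -2.59, Atp2a1 at -1.22 and Ckm at -3.84, and in the third at -0.51, -0.26, -1.04, -0.31 and -2.07. The voom weights gave medians of -1.46, 0.03, 0.49 and 0.11, and Ckm at -0.0028 for high dose against stress; the cause was not tested. With the replicate number as a block, 0 members passed and the medians were -2.02, 1.92, 3.50 and 1.42; the numbers did not pair the libraries (5 of 12 matched best with their own number, correlations of deviations -0.45 to 0.42). Of all genes, 0 passed edgeR in every comparison, whereas with low-dose replicate 1 left out, 1244 passed for low dose against stress and 99 between doses, none of them members; DESeq2 called 1, 95, 0 and 5. The 27 genes sharing their 3 highest libraries became 26 by TPM or without TMM. In 6 libraries the 33 genes summed to only 167 to 247 counts, so most levels there cannot be ordered.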

Other observations

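Genes of neighbouring families showed patterns that the adult fibre genes did not. Tnnt2, the cardiac and embryonic troponin T, was present in all libraries at 45.5 to 248 CPM, lowest in stress replicate 3 and highest in low-dose replicate 3. Nppb, which encodes brain natriuretic peptide and is used in heart muscle, was present in every library, from 6.59 CPM up to 49.3 CPM in low-dose replicate 3, while the heart myosin gene Myh6 was at most 1.05 CPM, in high-dose replicate 3. Sln, which encodes sarcolipin, a small inhibitor of the calcium pump, had 1.17 CPM in control replicate 1, 0.301 in low-dose replicate 3 and 0.0588 in high-dose replicate 2, so that the library with the most Atp2a1 had a single count of Sln.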
